A study of Mus musculus with 16 samples.

Results

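Clu, Ccn1 (formerly Cyr61), Ccn2 (formerly Ctgf), Anxa1, Ly6a, Il33 and Spp1 are 7 genes used as markers of fetal-like, regenerating or YAP-driven gut epithelium. Members were all probes that the array annotation names for these genes, by present or former symbol. 5 of the 7 genes had a probe: Ccn1 had 3, and Clu, Ccn2, Anxa1 and Il33 had 1 each, or 7 of the 25697 probes on the array. Ly6a and Spp1 were not analysed here. All 7 probes passed the filter on detection, and the 5 genes were fitted among 11230 genes.

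RNA of dissected, frozen mouse gut was hybridised to Illumina bead arrays, 1 array per sample. The colon groups were tumours of mice with the iLIN28B transgene together with Apcmin/+ (LIN28B/Apcmin, 4 arrays), tumours of Apcmin/+ mice (Apcmin, 2 arrays) and normal mucosa of wt mice (2 arrays). The small intestinal groups were tumours of LIN28B/Apcmin mice (2 arrays), tumours of iLIN28B mice without the Apc allele (LIN28B, 2 arrays), tumours of Apcmin mice (2 arrays) and normal wt mucosa (2 arrays). Every mouse, wt included, had a mixed B6/129/Balbc/CD1 background and received doxycycline from 6 to 7 weeks of age. The mice were 3 months old, except that the LIN28B tumour samples came from mice of 8 months, so age and genotype cannot be told apart in comparisons with that group. Tumours were labelled adenoma, except those of LIN28B mice (adenoma/adenocarcinoma), and the title of LIN28B/Apcmin small intestine replicate 2 names mucosa as well as tumour. The promoter that drives the transgene is not given in the sources used here. All 3 LIN28B/Apcmin colon arrays that were used open their title with the same number, as do both LIN28B small intestinal arrays, and a shared number may stand for 1 animal. The wt small intestinal array that was used shares its number with wt colon replicate 2. In those groups the spread between arrays may then be spread within an animal.

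LIN28B/Apcmin colon replicate 4 and wt small intestine replicate 1 had 12.0% and 5.28% of probes detected (detection p under 0.05). They were left out, so the wt small intestine rests on 1 array. The other 14 arrays had 48.3% to 56.5% of probes detected. Epithelial markers were detected at 10 or 11 of the 11 genes tested on all 14. Smooth muscle markers marked the wt mucosa as well: their 11 normalised intensities summed to 7557 to 9820 in LIN28B/Apcmin colon tumours and 12650 to 14690 in Apcmin colon tumours, against 54770 to 57990 in wt colon. In the small intestine the same sum was 2930 to 8699 in LIN28B/Apcmin, 9745 to 12910 in LIN28B and 15850 to 19830 in Apcmin tumours, against 26800 on the wt array. The mucosa samples therefore carried more smooth muscle signal than the tumours, and in such bulk RNA fewer cells of a type and less RNA per cell cannot be told apart.

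Damaged gut epithelium can return for a time to a state that resembles the fetal gut, in which Ly6a, Anxa1 and Clu are raised and the adult stem cell programme is low. YAP and TAZ, the coactivators that the Hippo kinases hold back, drive much of this state through TEAD transcription factors, and Ccn1 and Ccn2 are their best known target genes. Apc loss, the first step of most intestinal tumours, switches on Wnt target genes, and Lin28b is an RNA-binding protein of fetal tissue that blocks maturation of let-7 microRNAs.

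Ccn1, Anxa1 and Il33 have promoter entries in RefSeq on GRCm38.p6, and they are shown because the members are read as TEAD-driven genes. Each sequence runs 5′ to 3′ on the gene's strand from 250 bases before to 50 bases after the start of transcription, and capitals mark CATTCC, the core of the TEAD motif, or its reverse complement GGAATG.
Ccn1 (chr3:145649936-145650235, minus strand): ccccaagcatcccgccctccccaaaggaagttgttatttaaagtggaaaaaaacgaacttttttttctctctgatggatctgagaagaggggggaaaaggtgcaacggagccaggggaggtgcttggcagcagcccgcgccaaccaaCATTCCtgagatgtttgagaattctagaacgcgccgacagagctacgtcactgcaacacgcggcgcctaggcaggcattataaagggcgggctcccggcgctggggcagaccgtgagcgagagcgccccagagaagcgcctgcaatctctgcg
Anxa1 (chr19:20390622-20390921, minus strand): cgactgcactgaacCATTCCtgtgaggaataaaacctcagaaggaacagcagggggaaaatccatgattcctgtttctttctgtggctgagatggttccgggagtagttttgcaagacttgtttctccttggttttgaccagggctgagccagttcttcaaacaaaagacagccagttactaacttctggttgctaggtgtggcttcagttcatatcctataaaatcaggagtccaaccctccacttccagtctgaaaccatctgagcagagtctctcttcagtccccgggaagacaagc
Il33, first start (chr19:29924863-29925162, plus strand): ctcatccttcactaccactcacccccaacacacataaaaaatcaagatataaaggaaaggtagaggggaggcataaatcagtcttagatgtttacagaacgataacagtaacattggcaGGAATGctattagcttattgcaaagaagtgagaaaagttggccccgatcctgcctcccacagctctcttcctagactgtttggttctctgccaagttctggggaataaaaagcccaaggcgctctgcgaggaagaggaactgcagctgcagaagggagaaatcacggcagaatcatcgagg
Il33, second start (chr19:29945540-29945839, plus strand): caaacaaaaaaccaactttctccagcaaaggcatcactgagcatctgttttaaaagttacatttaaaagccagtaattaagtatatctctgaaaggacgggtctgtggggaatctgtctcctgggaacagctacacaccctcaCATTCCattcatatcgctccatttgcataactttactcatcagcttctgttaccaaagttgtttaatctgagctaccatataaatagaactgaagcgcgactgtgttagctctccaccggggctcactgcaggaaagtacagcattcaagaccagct
Each of these 4 windows held the motif once, on either strand, with its first printed base 103 bases before the start in Ccn1, 236 in Anxa1, and 131 and 107 in the Il33 windows. The motif stands in 14.7% of the 32851 promoter windows of this length in the table. None of the 4 windows held TGANTCA, the AP-1 motif, which 7.81% of all windows hold, or ATCAAAG, the TCF motif, or its reverse complement CTTTGAT, which 3.73% hold. Clu and Ccn2 have no window to show.

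Values below are normalised log2 intensities, and differences are on the same log2 scale with the standard error of the fit. A gene was called where limma's adjusted p over all 11230 genes was under 0.05. The plot of members by array gives every value.

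**Figure D1:**
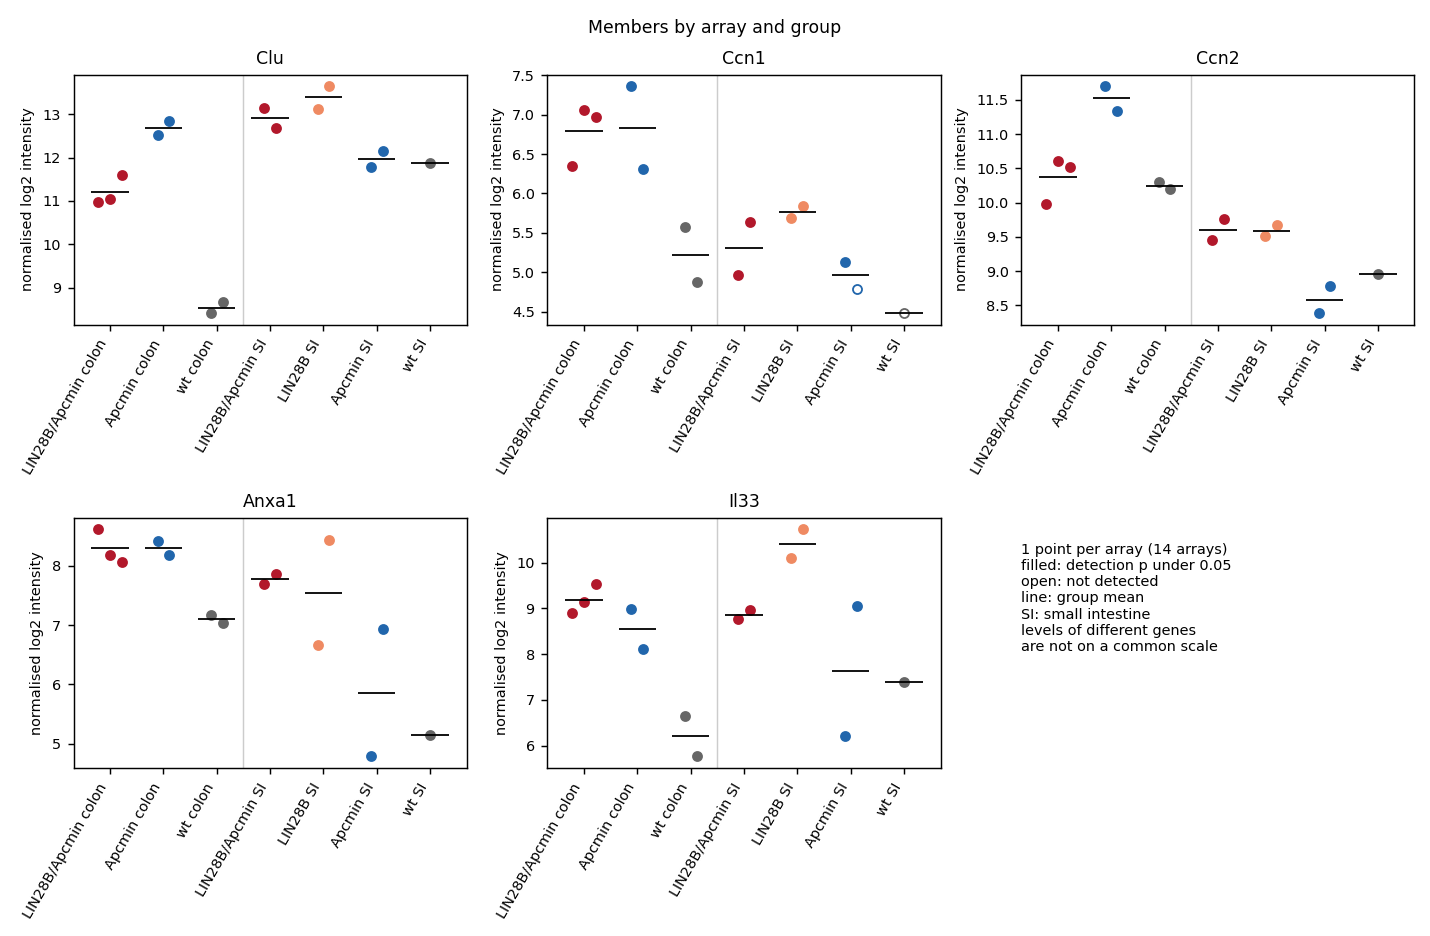
Normalised log2 intensity (y axis) of the 5 measured member genes on each of 14 arrays, by group (x axis), with a line at the group mean; filled points were detected and open points were not. Clu lay between 8.41 and 8.66 in wt colon and between 10.98 and 13.65 in every other group, while Ccn2 was highest in Apcmin colon tumours at 11.34 to 11.71.

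Clu encodes clusterin, a secreted chaperone that marks revival stem cells after injury (gene at chr14:65968483-65981548). In colon it read 10.98, 11.05 and 11.60 in LIN28B/Apcmin tumours, 12.52 and 12.85 in Apcmin tumours, and 8.41 and 8.66 in wt mucosa. The 3 groups did not overlap, and LIN28B/Apcmin tumours lay between the others. Clu rose by 4.15 ± 0.28 (17.8-fold, adjusted p = 3.19e-05) in Apcmin colon tumours over wt mucosa. It rose by 2.68 ± 0.26 (6.41-fold, adjusted p = 5.93e-05) in LIN28B/Apcmin colon tumours over wt. Both calls stood with each of the 14 arrays left out in turn, at 4.00 to 4.33 and 2.50 to 2.81. Among the members these were the only rises over wt with that property.

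Clu was high already in the wt mucosa of the small intestine. It read 13.15 and 12.69 in LIN28B/Apcmin, 13.13 and 13.65 in LIN28B and 11.78 and 12.15 in Apcmin tumours, against 11.87 on the wt array. Both LIN28B groups lay above the wt value, and the Apcmin arrays lay on either side of it. Clu rose by 1.52 ± 0.35 (adjusted p = 0.0454) in LIN28B tumours over wt. That call was lost without any 1 of 7 arrays: wt colon replicate 1 or 2, Apcmin colon replicate 1 or 2, LIN28B/Apcmin colon replicate 1 or 2, or LIN28B small intestine replicate 2 (adjusted p 0.0505 to 0.223). It was also lost with the LIN28B arrays, which share a title number, averaged (adjusted p = 0.111), with no value set to missing (adjusted p = 0.0862) and with no detection filter (adjusted p = 0.0644). The single wt array is assumed to vary like the other groups. The difference from wt was 1.05 ± 0.35 (adjusted p = 0.0972) in LIN28B/Apcmin tumours and 0.09 ± 0.35 (adjusted p = 1.00) in Apcmin tumours.

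The Apcmin difference of Clu from wt was 4.15 in colon and 0.09 in small intestine. The difference between them, a comparison added after the data were seen, was 4.06 ± 0.45 (adjusted p = 0.00292, against 1.50% of all genes called in that comparison). No other member passed this test: Ccn2 differed by 1.65 ± 0.40 (adjusted p = 0.0741), Il33 by 2.09 ± 1.12 (adjusted p = 0.473), Ccn1 by 1.13 ± 0.61 (adjusted p = 0.476) and Anxa1 by 0.50 ± 1.00 (adjusted p = 0.896). The order of the Clu levels was LIN28B small intestine (13.39), LIN28B/Apcmin small intestine (12.92), Apcmin colon (12.69), Apcmin small intestine (11.97), wt small intestine (11.87), LIN28B/Apcmin colon (11.21) and wt colon (8.53). Neighbours overlapped from the first place to the third and between the fourth and the fifth.

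Ccn2 encodes connective tissue growth factor, a secreted matricellular protein and the usual readout of YAP activity (chr10:24595442-24598683). In colon it read 9.98, 10.61 and 10.52 in LIN28B/Apcmin tumours, 11.71 and 11.34 in Apcmin tumours, and 10.29 and 10.20 in wt mucosa. The Apcmin arrays lay above all others, and the LIN28B/Apcmin arrays lay around the wt ones. Ccn2 rose by 1.28 ± 0.25 (2.42-fold, adjusted p = 0.00705) in Apcmin tumours over wt. The call was lost without wt colon replicate 2 or Apcmin colon replicate 1, with adjusted p 0.0598 to 0.0764. In LIN28B/Apcmin tumours the difference from wt was 0.12 ± 0.23 (95% interval -0.38 to 0.63, adjusted p = 0.743), and median scaling turned its sign (-0.23).

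In the small intestine Ccn2 read 9.45 and 9.76 in LIN28B/Apcmin, 9.51 and 9.67 in LIN28B and 8.38 and 8.78 in Apcmin tumours, against 8.96 on the wt array. Both groups with LIN28B lay above the wt value and both Apcmin arrays below it. Ccn2 rose by 1.02 ± 0.25 (2.03-fold, adjusted p = 0.0465) in LIN28B/Apcmin over Apcmin tumours, with adjusted p = 0.0514 under median scaling. Its difference from wt was 0.64 ± 0.31 in LIN28B/Apcmin (adjusted p = 0.227), 0.63 ± 0.31 in LIN28B (adjusted p = 0.271) and -0.38 ± 0.31 in Apcmin tumours (adjusted p = 1.00).

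Ccn1 encodes another matricellular YAP target, CYR61 (chr3:145646971-145649985). On the brightest of its 3 probes it read 6.34, 7.06 and 6.97 in LIN28B/Apcmin, 7.36 and 6.31 in Apcmin tumours, and 5.57 and 4.88 in wt colon. Every tumour array was above both wt arrays, and the tumour groups overlapped. Ccn1 rose by 1.57 ± 0.35 (2.97-fold, adjusted p = 0.00800) in LIN28B/Apcmin tumours over wt. It rose by 1.61 ± 0.39 (3.06-fold, adjusted p = 0.0188) in Apcmin tumours over wt. The LIN28B/Apcmin call was lost without wt colon replicate 2 (adjusted p = 0.0980), and with arrays of 1 title number averaged (adjusted p = 0.0845). The Apcmin call was lost without wt colon replicate 2 or Apcmin colon replicate 1 (adjusted p 0.155 to 0.167).

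Ccn1 was dim in the small intestine. On the same probe it read 4.97 and 5.63 in LIN28B/Apcmin, 5.69 and 5.85 in LIN28B and 5.13 and 4.79 in Apcmin tumours, against 4.48 on the wt array. This probe was not well above background on the wt array or on Apcmin replicate 2. Probe ILMN_2710253 was detected on all of these arrays and gave differences from wt of 0.19 ± 0.36 in LIN28B/Apcmin, 0.05 ± 0.36 in LIN28B and -0.06 ± 0.36 in Apcmin tumours, none of them called (adjusted p 0.815, 0.962 and 1.00). None was called on the main probe either (adjusted p 0.315, 0.157 and 1.00).

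The 3 Ccn1 probes differed in how much they moved. Probe ILMN_2710253 rose by 1.20 ± 0.27 (adjusted p = 0.00804) in LIN28B/Apcmin and by 2.02 ± 0.29 (adjusted p = 0.00145) in Apcmin colon tumours over wt. Probe ILMN_1235571, the dimmest, gave 0.65 ± 0.36 (adjusted p = 0.218) and 0.95 ± 0.40 (adjusted p = 0.144) in the same comparisons, without a call. These values come from the fit of all 15495 probes. Between LIN28B/Apcmin and Apcmin colon tumours the main probe gave -0.04 ± 0.35, ILMN_2710253 gave -0.81 ± 0.27 (adjusted p = 0.195) and ILMN_1235571 gave -0.30 ± 0.36, all without a call. Over the 14 arrays the probes correlated at r 0.774 to 0.854.

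**Figure D2:**
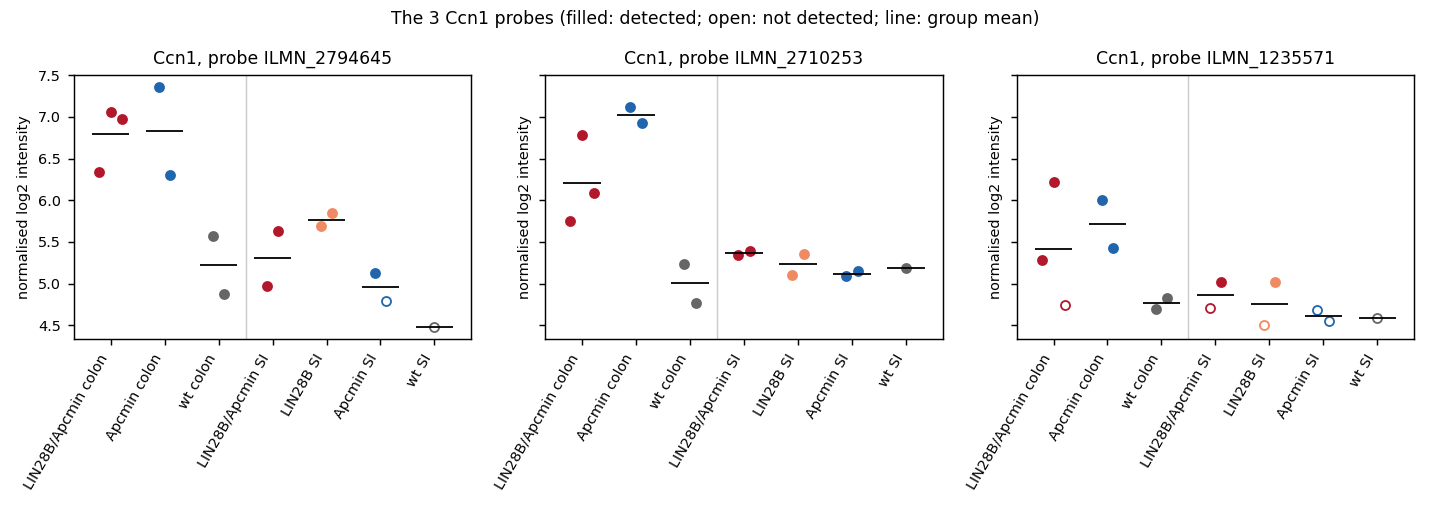
Normalised log2 intensity of the 3 Ccn1 probes on each of 14 arrays by group, with lines at group means and open points where the probe was not detected. All 3 probes had their highest group mean in colon tumours; ILMN_1235571 stayed between 4.50 and 6.22 on all arrays.

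Anxa1 encodes annexin A1, a phospholipid-binding protein that acts on formyl peptide receptors and marks fetal and regenerating epithelium (chr19:20373434-20390671). In colon it read 8.62, 8.19 and 8.07 in LIN28B/Apcmin and 8.41 and 8.18 in Apcmin tumours, against 7.17 and 7.03 in wt mucosa. Tumour arrays lay above wt arrays with no overlap, at 1.19 ± 0.58 (adjusted p = 0.151) in LIN28B/Apcmin and 1.20 ± 0.63 (adjusted p = 0.241) in Apcmin tumours. Neither difference was called. Small intestinal Anxa1 read 7.69 and 7.85 in LIN28B/Apcmin, 6.66 and 8.42 in LIN28B and 4.78 and 6.93 in Apcmin tumours, against 5.15 on the wt array. Within the LIN28B pair, whose titles give different sites, and within the Apcmin pair the arrays lay far apart, while the LIN28B/Apcmin arrays lay close together. The differences from wt were 2.62 ± 0.77 (adjusted p = 0.0738), 2.39 ± 0.77 (adjusted p = 0.113) and 0.70 ± 0.77 (adjusted p = 1.00) in LIN28B/Apcmin, LIN28B and Apcmin tumours.

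Il33 encodes an alarmin of the interleukin-1 family, stored in nuclei and released on damage (chr19:29925113-29960718). In colon it read 8.90, 9.14 and 9.54 in LIN28B/Apcmin and 8.99 and 8.11 in Apcmin tumours, against 6.65 and 5.76 in wt mucosa. Every tumour array was above both wt arrays. Il33 rose by 2.99 ± 0.65 (7.92-fold, adjusted p = 0.00664) in LIN28B/Apcmin tumours over wt, a call lost without wt colon replicate 2 (adjusted p = 0.0748) and with arrays of 1 title number averaged (adjusted p = 0.0978). In Apcmin tumours it rose by 2.34 ± 0.71 (adjusted p = 0.0499), and that call was lost in 11 of 14 runs with 1 array left out. It was kept in the 3 runs without Apcmin small intestine replicate 1 or 2 or without the wt small intestinal array. The same call was lost in 8 of 10 other settings, with limma adjusted p up to 0.104 on the 14 arrays.

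Small intestinal Il33 read 8.77 and 8.95 in LIN28B/Apcmin, 10.10 and 10.73 in LIN28B and 6.21 and 9.05 in Apcmin tumours, against 7.38 on the wt array. The LIN28B tumours held the highest Il33 values of all 14 arrays. Their difference from wt was 3.03 ± 0.87 (8.19-fold), with adjusted p = 0.0849 and no call. The Apcmin arrays lay on either side of the wt value, as they did for Anxa1, and replicate 2 was the higher for both genes. Without Apcmin replicate 2, the LIN28B/Apcmin minus Apcmin difference was 3.01 for Anxa1 (adjusted p = 0.0097) and 2.65 for Il33 (adjusted p = 0.00831). Without Apcmin replicate 1 instead, they were 0.85 for Anxa1 (adjusted p = 0.506) and -0.19 for Il33 (adjusted p = 0.903). Each of these runs leaves 1 Apcmin array, assumed to vary like the other groups. With all arrays the same differences were 1.92 ± 0.63 (adjusted p = 0.0971) and 1.23 ± 0.71 (adjusted p = 0.315).

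Counted together in colon, 4 of the 5 measured members rose in Apcmin tumours over wt. Over all genes 6.64% rose there, 7.91% fell and 14.6% were called in either direction. The Il33 call among these 4 was lost in 8 of 10 other settings. In LIN28B/Apcmin colon tumours 3 of 5 rose over wt, where 13.7% of all genes rose, 14.2% fell and 27.9% were called. None fell in either comparison. The median log2 difference of the members was 1.61 in Apcmin and 1.57 in LIN28B/Apcmin tumours, beside medians of 0.02 and 0.04 over all genes. The comparisons share the wt arrays.

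In the small intestine, 1 of 5 members (Clu) rose in LIN28B tumours over wt, where 1.16% of all genes rose, 1.84% fell and 3.00% were called. None was called in LIN28B/Apcmin tumours over wt (2.36% of genes higher, 2.75% lower and 5.11% called) by limma, although 2 had an unadjusted p under 0.05. None was called in Apcmin tumours over wt (0.00% of genes higher, 0.0890% lower), and none had an unadjusted p under 0.05. With the replicate number as a block, 2 members were called in LIN28B/Apcmin over wt. That block also called more of all genes than the main fit did, so the shares above do not stand beside this count. Its gene count is given with the dependence on processing. The member medians were 1.05 in LIN28B/Apcmin, 1.52 in LIN28B and 0.25 in Apcmin tumours, each against a single wt array. On that array, genes of the exocrine pancreas list summed to 12480, beside 1376 to 2624 in LIN28B/Apcmin, 1526 to 1805 in LIN28B and 4206 to 7685 in Apcmin tumours, and Ctrb1, a digestive protease, was at least 9.48-fold lower in LIN28B/Apcmin and at least 10.3-fold lower in LIN28B tumours (adjusted p 4.95e-05 and 3.58e-05). The part of smooth muscle and pancreas RNA in the members' differences was not tested.

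**Figure D3:**
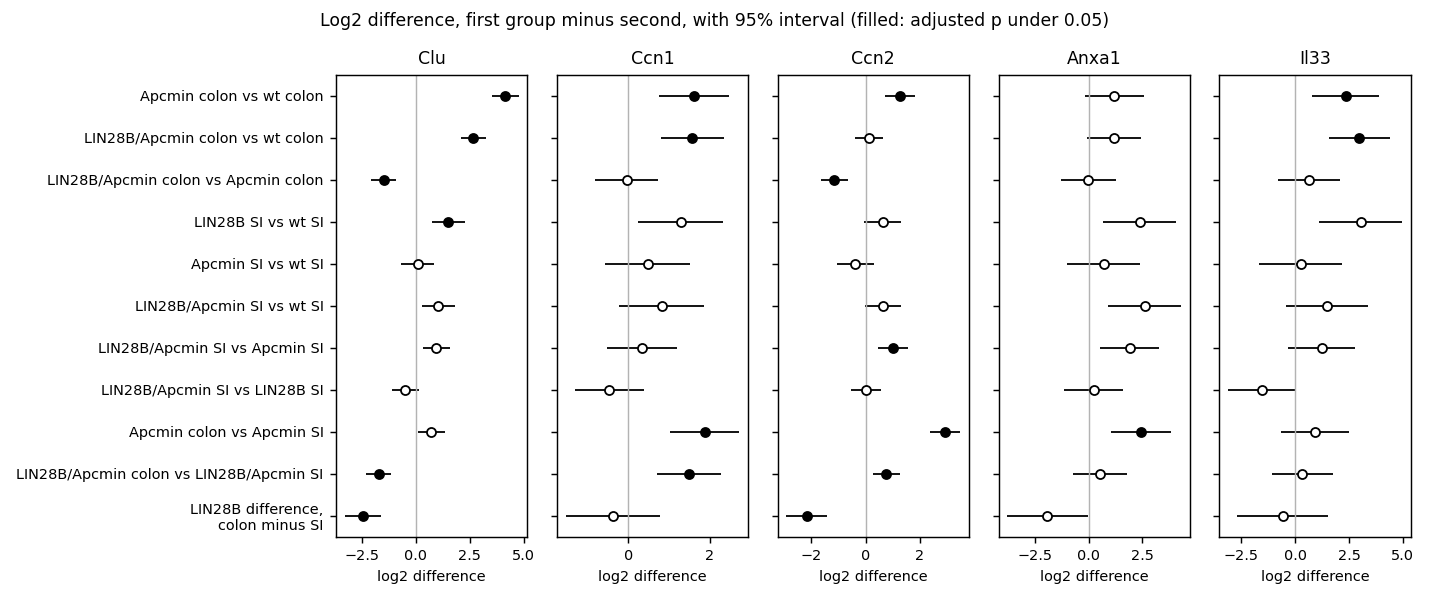
Log2 difference (x axis, first group minus second) of each member in 11 comparisons (y axis) with its 95% interval; filled points have an adjusted p under 0.05. Clu ranges from 4.15 in Apcmin colon over wt colon to -2.43 in the difference between organs, and the only filled Anxa1 point is that of Apcmin colon against Apcmin small intestine.

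LIN28B/Apcmin and Apcmin tumours were then set side by side in each organ. In colon 2 of 5 members fell, Clu by 1.47 ± 0.26 (2.78-fold lower, adjusted p = 0.0274) and Ccn2 by 1.16 ± 0.23 (2.23-fold lower, adjusted p = 0.0387), where 0.499% of all genes rose, 0.677% fell and 1.18% were called. Ccn1 differed by -0.04 (95% interval -0.82 to 0.74), Anxa1 by -0.01 (-1.27 to 1.26) and Il33 by 0.64 (-0.79 to 2.07), none of them called. The Clu call was lost without any 1 of 6 arrays, namely each wt colon, each Apcmin colon and the first 2 LIN28B/Apcmin colon arrays (adjusted p 0.0522 to 0.354). The Ccn2 call was lost without any 1 of 9 arrays, namely all 7 colon arrays and both LIN28B small intestinal arrays (adjusted p 0.0557 to 0.295). With the 3 LIN28B/Apcmin arrays of 1 title number averaged to 1 value, adjusted p was 0.184 for Clu and 0.238 for Ccn2. In each of these runs both genes stayed lower, at -1.68 to -1.32 and -1.34 to -0.96 with an array left out.

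In the small intestine 1 of 5 members, Ccn2, rose in LIN28B/Apcmin over Apcmin tumours, where 2.09% of all genes rose, 2.47% fell and 4.56% were called. All 5 had positive differences: Ccn2 1.02, Clu 0.95 ± 0.28 (adjusted p = 0.0737), Anxa1 1.92, Il33 1.23 and Ccn1 0.34 ± 0.39 (adjusted p = 0.639). Clu, Ccn2 and Anxa1 did not overlap between the groups, and Ccn1 and Il33 did. The share of all genes without overlap was not counted. The Ccn2 call was lost without any 1 of 10 arrays: both wt colon, both Apcmin colon, LIN28B/Apcmin colon replicates 2 and 3, both LIN28B small intestine, Apcmin small intestine replicate 1 and LIN28B/Apcmin small intestine replicate 2 (adjusted p 0.0504 to 0.304).

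The difference between organs was tested as such, as LIN28B/Apcmin minus Apcmin in colon less the same in small intestine. It was -2.43 ± 0.38 for Clu and -2.17 ± 0.34 for Ccn2, each with adjusted p = 0.0284. These were 2 of 5 members, where 0.205% of all genes were called higher, 0.214% lower and 0.419% in either direction. Anxa1 gave -1.92 ± 0.85 (adjusted p = 0.292), Il33 -0.59 (adjusted p = 0.797) and Ccn1 -0.38 ± 0.52 (adjusted p = 0.749). The Clu call was lost without any 1 of 8 arrays: both wt colon, both Apcmin colon, LIN28B/Apcmin colon replicates 1 and 2, Apcmin small intestine replicate 1 and LIN28B/Apcmin small intestine replicate 2 (adjusted p 0.0516 to 0.170). The Ccn2 call was lost without any 1 of the same arrays other than the LIN28B/Apcmin colon ones (adjusted p 0.0510 to 0.133), and averaging arrays of 1 title number gave adjusted p 0.0949 for Clu and 0.110 for Ccn2.

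Smooth muscle, fibroblast, myeloid and pancreas markers were read beside these values. In LIN28B/Apcmin against Apcmin colon tumours, none of 11 smooth muscle, 13 fibroblast and 15 myeloid genes was called, where 1.18% of all genes were. Of 4 exocrine pancreas genes 2 fell, Sycn by 4.55 and Clps by 2.49, where 0.677% of all genes fell. The list summed to 889.3 to 1063 in LIN28B/Apcmin and 3423 to 6794 in Apcmin colon tumours. It was highest in wt colon, at 14070 to 14820, beside 12480 on the wt small intestinal array. For the difference between organs 1 of 4 (Cela1, -3.01) was called lower, where 0.214% of all genes were. The summed fibroblast intensities were 9421 to 12220 in LIN28B/Apcmin and 14210 to 14600 in Apcmin colon tumours, lower without overlap, as Ccn2 was. The mean log2 intensity of the same genes overlapped (8.476 to 8.894 and 8.784 to 8.903). Smooth muscle was lower without overlap in its sum (7557 to 9820 and 12650 to 14690). It was so in its mean log2 intensity as well (7.098 to 7.454 and 7.934 to 8.246). In LIN28B/Apcmin against Apcmin small intestinal tumours 7 of 11 smooth muscle genes fell and none of 13 fibroblast genes was called. Over all genes 2.47% fell and 4.56% were called there. The part of these cells and of the RNA of the pancreas list, from whatever source, in the Clu and Ccn2 differences was not tested.

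**Figure D4:**
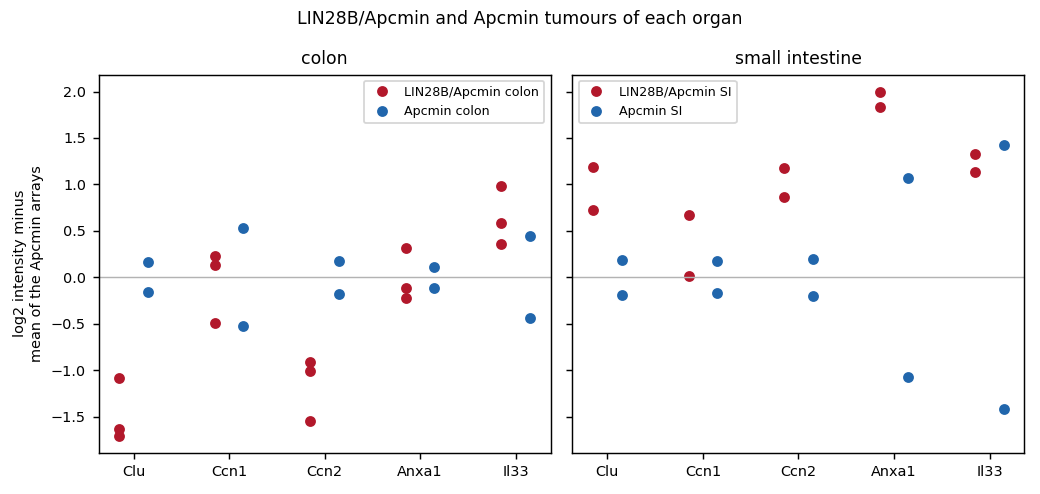
Log2 intensity of each member on LIN28B/Apcmin and Apcmin tumour arrays minus the mean of the Apcmin arrays of the same organ (y axis), by organ; points are arrays. Clu and Ccn2 lie below 0 on all 3 LIN28B/Apcmin colon arrays and above 0 on both LIN28B/Apcmin small intestinal arrays.

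LIN28B/Apcmin and LIN28B small intestinal tumours were compared next, which differ in the Apc allele, in age and, for LIN28B replicate 2, in the site its title gives (Jej, where every other small intestinal title has D). None of the 5 members was called by limma (0.472% of genes higher, 0.401% lower and 0.873% called), and none had an unadjusted p under 0.05. Ccn2 differed by 0.01 (95% interval -0.54 to 0.56, but -0.32 under median scaling), Clu by -0.47 (-1.09 to 0.16) and Il33 by -1.55 ± 0.71 (adjusted p = 0.325).

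Colon tumours were also set against small intestinal tumours of the same genotype. In Apcmin tumours 3 of 5 members were higher in colon, where 10.3% of all genes were higher, 9.09% lower and 19.4% called. Ccn2 was higher by 2.94 ± 0.25 (7.69-fold, adjusted p = 4.18e-05), a call kept with each of the 14 arrays left out. Anxa1 was higher by 2.44 ± 0.63 (adjusted p = 0.0205) and Ccn1 by 1.87 ± 0.39 (adjusted p = 0.00711). The Anxa1 call was lost without Apcmin colon replicate 1 or 2 or Apcmin small intestine replicate 1, and the Ccn1 call without Apcmin colon replicate 1. In LIN28B/Apcmin tumours Ccn1 was higher in colon by 1.49 ± 0.35 (adjusted p = 0.0169) and Ccn2 by 0.77 ± 0.23 (adjusted p = 0.0438), while Clu was lower by 1.71 ± 0.26 (3.27-fold lower, adjusted p = 0.00161), where 8.37% of genes were higher, 7.51% lower and 15.9% called. Clu kept its call without any 1 array. The Ccn1 call was lost without LIN28B/Apcmin colon replicate 2 or LIN28B/Apcmin small intestine replicate 1, with arrays of 1 title number averaged (adjusted p = 0.149) and with the replicate block (adjusted p = 0.0575). Probes ILMN_2710253 (0.84 ± 0.27, adjusted p = 0.0604) and ILMN_1235571 (0.55 ± 0.36, adjusted p = 0.345) gave no call there. The Ccn2 call was lost in 10 of 14 runs. Myeloid and fibroblast genes were higher in colon as well: 10 of 15 and 6 of 13 in LIN28B/Apcmin tumours, and 6 of 15 and 5 of 13 in Apcmin tumours.

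Other genes of the YAP pathway were called at shares set here beside those over all genes. Of 13 other YAP and TAZ target genes tested, 1 rose and 3 fell in LIN28B/Apcmin colon tumours over wt (list median -0.32, beside 0.04 over all genes), where 27.9% of all genes were called. Rbms3, an RNA-binding protein gene, rose by 1.82, while Asap1 fell by 1.28, Crim1 by 1.03 and Gadd45a, a stress response gene, by 0.81. In Apcmin colon tumours over wt 1 of 13 rose (list median 0.07), where 6.64% of all genes rose and 14.6% were called. This was Rbms3, by 1.25 (adjusted p = 0.0399), a call lost under median scaling. None of the 13 was called by limma between LIN28B/Apcmin and Apcmin colon tumours, where 1.18% of all genes were called. The list median there was -0.44, beside 0.0009 over all genes, and 2 of the 13 had an unadjusted p under 0.05. In LIN28B/Apcmin over Apcmin small intestinal tumours, where Ccn2 rose, 2 of the 13 fell and none rose. Over all genes 2.47% fell, 2.09% rose and 4.56% were called. The kinase gene Nuak2 fell by 1.57 and Gadd45a by 1.13.

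Of 11 Hippo pathway and TEAD genes, 4 rose in LIN28B/Apcmin colon tumours over wt (3 under median scaling), where 13.7% of all genes rose, and the list median was 0.39. These were Tead2 (2.68 ± 0.45, adjusted p = 0.00150), the cofactor gene Vgll4 (1.28 ± 0.28, adjusted p = 0.00652), Tead4 (1.25 ± 0.35, adjusted p = 0.0226) and Yap1 (1.14 ± 0.25, adjusted p = 0.00666). In Apcmin colon tumours 2 of 11 rose (list median 0.30, with 6.64% of all genes rising), Tead2 by 3.22 ± 0.49 (adjusted p = 0.00183) and Vgll4 by 1.58 ± 0.30 (adjusted p = 0.00642). Yap1 gave 0.87 ± 0.27 (adjusted p = 0.0562) there, and Wwtr1, which encodes TAZ, gave 0.49 ± 0.25 (adjusted p = 0.219).

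Among 20 other fetal and regenerating epithelium genes, 6 rose and 1 fell in LIN28B/Apcmin colon tumours over wt, and 4 rose and 1 fell in Apcmin tumours. Over all genes 27.9% and 14.6% were called in these comparisons, and the list medians were 0.90 and 0.98. The keratin gene Krt23 rose by 3.99 in LIN28B/Apcmin and 3.84 in Apcmin tumours, and Cldn4, a tight junction gene, by 2.14 and 2.05. Emp1, a membrane protein gene, fell by 2.19 and 1.92. In LIN28B small intestinal tumours against the single wt array the list median was 1.09, beside 0.05 over all genes. Ly6e, of the same family as Ly6a, was higher there by 1.86 ± 0.30.

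Of 12 receptor genes of the secreted members, 3 rose in LIN28B/Apcmin colon tumours over wt, where 13.7% of all genes rose. In Apcmin colon tumours over wt 2 rose, where 6.64% of all genes rose. Between LIN28B/Apcmin and Apcmin colon tumours 1 rose, where 0.499% of all genes rose. None of the 12 fell in these comparisons. Fpr2, which encodes a receptor of annexin A1, was among the called genes each time. It rose by 3.27 ± 0.22 (adjusted p = 6.60e-06) in LIN28B/Apcmin and by 2.12 ± 0.24 (adjusted p = 0.000332) in Apcmin tumours over wt, and by 1.14 ± 0.22 (adjusted p = 0.0344) in LIN28B/Apcmin over Apcmin tumours, a call lost under median scaling. Fpr2 is active in myeloid cells, and which cells carried it here was not tested. Myeloid marker intensities summed to 16060 to 19210 in LIN28B/Apcmin and 10690 to 16250 in Apcmin colon tumours, against 4424 to 4951 in wt colon, and their part in these values was not tested.

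The members did not vary as 1 group over the 14 arrays. Ccn1 and Ccn2 correlated at r = 0.784, Ccn2 and Anxa1 at 0.715 and Clu and Il33 at 0.704, while Clu correlated with Ccn2 at -0.12 and with Ccn1 at 0.104. Among 8600 other genes, the closest to Clu was Xxylt1 (r = 0.908), to Ccn1 Sumo2 (0.947), to Ccn2 Pdpn (0.937), to Anxa1 Clspn (0.960) and to Il33 Psmg1 (0.927). These are descriptions over 14 arrays that share organ and tumour groups.

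The order of mean levels differed between the members. Ccn2 ran from Apcmin colon (11.53) over LIN28B/Apcmin colon (10.37) and wt colon (10.25) to the small intestinal groups, lowest in Apcmin (8.58), and LIN28B/Apcmin and wt colon overlapped. Ccn1, on its main probe, and Anxa1 were also highest in Apcmin colon (6.84 and 8.30), overlapping with LIN28B/Apcmin colon (6.79 and 8.29). Both were lowest on the wt small intestinal array (4.48 and 5.15), where that Ccn1 probe was not detected. On ILMN_2710253, detected on all 14 arrays, Apcmin colon (6.93 to 7.11) lay clear of LIN28B/Apcmin colon (5.76 to 6.78). The lowest mean of that probe was in wt colon, whose arrays lay on either side of the wt small intestinal value. ILMN_1235571 had the same highest and lowest groups as the main probe. Il33 was highest in LIN28B small intestine (10.41), clear of LIN28B/Apcmin colon (9.19), and lowest in wt colon (6.21).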

How the data were processed

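Per the file headers, the deposited values are average bead signals, an intensity, with a detection p-value per probe that the authors deposited beside it. From the values (all above 0, with medians that differ between arrays), the signals were neither background-subtracted nor normalised. A second deposited intensity table, rescaled by a method not given in the sources used here, was used only as an alternative. Per the labels' protocols, RNA was extracted with TRIZOL and biotin-labelled cRNA made for Illumina arrays. The members and gene lists were chosen with earlier results of these data known.

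Arrays with under 20% of probes detected at p under 0.05 were left out, and signals under 25 set to missing (1994 values). Signals were background-corrected (normexp from detection p, offset 16), taken to log2 and quantile normalised in limma 3.58.1 (R 4.3.3). 1 probe per gene was kept, that of highest mean, if detected on at least 2 arrays. All 7 groups were fitted together (lmFit, eBayes, 7 residual degrees of freedom), with Benjamini-Hochberg adjustment over 11230 genes in each of 11 comparisons. The fit was tested on simulated data. A gene with no probe detected on any array of a group has only a bound, written "at least". Intensities come from 1 array per sample, so the number of arrays limits the precision. The p-values measure spread between arrays, technical spread included. Tumour titles that share a number differ in the rest and may name separate tumours of 1 animal.

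Named were all members, up to 4 called genes per list and direction by size, Yap1, Wwtr1, Tead1 to Tead4 and 6 receptors, and for each member the genes of highest correlation. Alternatives changed the arrays, missing values, scaling, offset, filter, probes, blocks and source table, and left out each array. The Apcmin difference by organ was added after the data were seen.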

Additional observations from a re-analysis of the deposited data

Results flagged for a closer look

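3 differences between organs passed their own test. LIN28B/Apcmin minus Apcmin, in colon less in small intestine, was -2.43 for Clu and -2.17 for Ccn2 (limma adjusted p = 0.0284 each). Both genes were lower in LIN28B/Apcmin than in Apcmin tumours of the colon and higher in those of the small intestine. The small intestinal rise of Clu was not called (limma adjusted p = 0.0737). The organ call was lost without any 1 of 8 arrays for Clu and any 1 of 6 for Ccn2. Both were lost with arrays of 1 title number averaged. Apcmin minus wt, in colon less in small intestine, was 4.06 for Clu (adjusted p = 0.00292) and rests on 1 wt small intestinal array.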

How the results depend on the processing

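The directions of all called members stood with each array left out. Leaving out 1 array gave 587 to 1861 genes and 1 to 4 members called in Apcmin colon over wt colon, 1354 to 3305 and 1 to 4 in LIN28B/Apcmin colon over wt colon, 5 to 182 and 0 to 2 in LIN28B/Apcmin over Apcmin colon, 80 to 742 and 0 to 3 in LIN28B over wt small intestine, 7 to 65 and 0 in Apcmin over wt small intestine, 55 to 1153 and 0 to 1 in LIN28B/Apcmin over wt small intestine, 37 to 1217 and 0 to 3 in LIN28B/Apcmin over Apcmin small intestine, 13 to 468 and 0 in LIN28B/Apcmin over LIN28B small intestine, 870 to 2330 and 1 to 4 in Apcmin colon over small intestine, 901 to 1964 and 1 to 3 in LIN28B/Apcmin colon over small intestine, and 4 to 373 and 0 to 3 in the LIN28B difference between organs. With all 16 arrays the calls were 85 genes in LIN28B/Apcmin over wt colon, 36 and 52 in colon over small intestine of Apcmin and LIN28B/Apcmin tumours, and 0 elsewhere, with 0 members. Without missing values on 14 arrays they were 23 genes in LIN28B/Apcmin over Apcmin colon, 161 in LIN28B over wt, 207 and 193 in LIN28B/Apcmin over wt and over Apcmin small intestine, 36 in LIN28B/Apcmin over LIN28B, and 21 for the organ difference, with 0 members in these. With arrays of 1 title number averaged they were 1485 genes and 1 member in LIN28B/Apcmin over wt colon, 27 in LIN28B/Apcmin over Apcmin colon, 99 in LIN28B over wt, 331, 254 and 18 in LIN28B/Apcmin over wt, Apcmin and LIN28B small intestine, 650 and 1 member in LIN28B/Apcmin colon over small intestine, and 9 for the organ difference, with 0 members in those given without a member count. Median scaling gave 275 genes and 0 members in LIN28B/Apcmin over Apcmin small intestine and 159 genes over LIN28B, and it moved the median of all genes by -0.15 in LIN28B/Apcmin over Apcmin colon, 0.14 in LIN28B over wt small intestine and -0.18 in LIN28B/Apcmin over LIN28B. Without a detection filter 28 genes were called in Apcmin over wt small intestine and 30 genes with 1 member for the organ difference, with 1 member in LIN28B/Apcmin over Apcmin colon and 0 in LIN28B over wt and LIN28B/Apcmin over Apcmin small intestine. In the wt groups of both organs a replicate number goes with the same title number, but with 1 wt small intestinal array this pairing was not tested. Over the other 6 groups the replicate numbers showed no pairing (correlations of deviations -0.03 to 0.356, 3 of 15 pairs over 0.1). With the replicate block 750 genes were called in LIN28B over wt. The block gave 1392 genes with 2 members and 1040 with 2 members in LIN28B/Apcmin over wt and Apcmin small intestine. It gave 1 member each in LIN28B/Apcmin over Apcmin colon and LIN28B/Apcmin colon over small intestine. The following uncalled differences, and the called one where named, changed sign. With all 16 arrays Ccn1 gave 0.90 and Il33 -0.00279 in LIN28B/Apcmin over Apcmin colon, Ccn2 -0.73 over wt colon, Ccn1 -1.16, -1.86 and -1.56 in LIN28B, Apcmin and LIN28B/Apcmin over wt small intestine, Ccn2 1.57 in Apcmin over wt small intestine, Ccn2 -0.10 (called in the 14 arrays), Anxa1 -0.26 and Il33 -0.28 in LIN28B/Apcmin colon over small intestine, and Ccn1 0.60 for the organ difference. Median scaling gave Ccn2 -0.23 in LIN28B/Apcmin over wt colon, Clu -0.0783 in Apcmin over wt small intestine, and Ccn2 -0.32 and Anxa1 -0.11 in LIN28B/Apcmin over LIN28B. Without missing values Ccn1 gave 0.0495 and Anxa1 0.0600 in LIN28B/Apcmin over Apcmin colon, and the replicate block gave Anxa1 0.10 there. With 1 array left out, Ccn1 ran from -0.57 to 0.49 and Anxa1 from -0.17 to 0.11 in LIN28B/Apcmin over Apcmin colon, Clu from -0.0925 to 0.28, Anxa1 from -0.37 to 1.78 and Il33 from -1.17 to 1.67 in Apcmin over wt small intestine, Il33 from -0.19 to 2.65 in LIN28B/Apcmin over Apcmin small intestine, Ccn2 from -0.14 to 0.17 and Anxa1 from -0.65 to 1.11 in LIN28B/Apcmin over LIN28B, Il33 from -0.50 to 2.34 in Apcmin colon over small intestine, and Ccn1 from -0.91 to 0.15 and Il33 from -2.01 to 0.83 for the organ difference. The cause of these changes was not tested.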

Other observations

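On LIN28B/Apcmin colon replicate 4, which was left out, Ccn1 probe ILMN_2794645 had a signal of 103.1 with a detection p of 0, while the other Ccn1 probes read 10.3 and 10.4. On wt small intestine replicate 1, also left out, the 3 probes read 18.6, 10.5 and 10.4.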
